A study of Mus musculus with 6 samples.

Results

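*Hox* genes encode homeodomain transcription factors. The array named 39 of them, of 19057 genes in all, through 59 of 45277 usable probes, chosen as every probe whose platform gene symbol begins with *Hoxa*, *Hoxb*, *Hoxc* or *Hoxd* followed by a paralog number from 1 to 13. They were 38 protein-coding genes and 1 antisense gene, *Hoxd3os1*, which had 2 probes. Single probes read 25 of the genes, and 13 genes had more than 1 probe.

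Whole kidneys were collected at embryonic day E15.5 from 3 litters, and each litter gave 1 control array and 1 mutant array. Mutant embryos were *FoxD1GC;Dicer fl/fl*, labelled FoxD1;Dicer, and controls were Cre-negative littermates from the same matings. Kidneys of 2 embryos of the same genotype were pooled for each array. In *FoxD1GC*, Cre joined to GFP is made under control of *Foxd1* itself, so recombination takes place in stromal cells and their descendants. The study also names expression of *FoxD1GC* in podocytes as a possible confounder. The *FoxD1GC* line was *129-Elite*, and the floxed *Dicer* line was *C57BL/6J*. As controls carried no Cre, an effect of the *FoxD1GC* allele itself and an effect of losing *Dicer* cannot be told apart. The stroma is 1 of several compartments in a whole kidney. In such bulk RNA, fewer cells of a type and less RNA per cell cannot be told apart.

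*Hox* genes lie in 4 clusters, and the order of genes along a cluster matches the order in which they are expressed along the body axis, from the head for low paralog numbers to the tail for high ones. The kidney forms in the posterior trunk. There the Hox11 paralogs of the metanephric mesenchyme act with Eya1 upstream of *Six2* and *Gdnf*, and mouse Hox10 paralogs are needed for the cortical stroma to form and integrate. Dicer, the endonuclease that makes mature microRNAs, bears on this family because the clusters themselves hold microRNA genes. In mouse embryos miR-196 directs cleavage of *Hoxb8* mRNA, and *Hoxa7*, *Hoxc8* and *Hoxd8* carry sites for it. Members of the miR-10 family repress *HOXD10* in human cells and *hoxb3a* in zebrafish.

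The microRNAs of the clusters are shown because the *Hox* target lists used below are named after them. Those lists were fixed sets of genes, and no transcript was searched for seed matches. Sequences and coordinates are those of RefSeq on GRCm38.p6, read 5′ to 3′, and capitals mark the seed, bases 2 to 8.
mmu-miR-10a-5p: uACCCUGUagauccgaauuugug
mmu-miR-10b-5p: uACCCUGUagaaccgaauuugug
mmu-miR-196a-5p: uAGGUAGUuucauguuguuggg
mmu-miR-196b-5p: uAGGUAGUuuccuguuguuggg
The miR-10 pair shared its seed and differed at 1 of 23 positions. The miR-196 pair also shared its seed and differed at 1 of 22 positions. *Mir10a* (chr11:96317186-96317208, + strand) lay within the *Hoxb3* gene model, between the starts of *Hoxb3* and *Hoxb4*. *Mir10b* (chr2:74726074-74726096, + strand) lay within the models of *Hoxd3* and *Hoxd4*. The identical miR-196a was encoded by *Mir196a-1* between *Hoxb13* and *Hoxb9* (chr11:96265187-96265208, + strand) and by *Mir196a-2* between *Hoxc10* and *Hoxc9* (chr15:102973365-102973386, + strand). *Mir196b* (chr6:52230129-52230150, - strand) lay between *Hoxa9* and *Hoxa10*. The arrays measured mRNA, and the levels of these microRNAs were not measured on them.

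The arrays differed in brightness and detected similar numbers of *Hox* probes. Between 37.5% and 44.7% of all probes were detected per array, meaning a detection p-value under 0.05 against the negative control beads, and between 30 and 35 of the 59 *Hox* probes were. The signal of the 95th percentile probe relative to the median undetected probe was 9.45 to 10.5 on the control arrays, 9.46 on the mutant array of litter 1, and 7.90 and 7.91 on the mutant arrays of litters 2 and 3. The brightest *Dicer1* probe gave signals of 299, 364 and 387 in controls and 297, 272 and 222 in mutants (litters 1, 2 and 3). Its log2 difference was -0.33 (SE 0.21, limma adjusted p = 0.86), and no source used here says whether it reads the floxed exon. Dimmer *Dicer1* probes, each detected on 4 arrays, gave -0.15 (SE 0.23) and 0.09 (SE 0.27), with mixed signs between litters. *Foxd1*, the gene that drives Cre, had a log2 difference of -0.32 (SE 0.20, limma adjusted p = 0.86) and was lower in the mutant in all 3 litters. Of the marker lists, 7 of 7 stromal and 6 of 6 nephron progenitor genes with a probe were detected on all 6 arrays. So were 5 of 9 ureteric bud and collecting duct genes and 3 of 5 proximal tubule genes. At the looser threshold of detection on at least 3 arrays, 0 of 5 adrenal and gonad markers passed. At that threshold 5 of 5 ureter and bladder, 4 of 5 skeletal muscle and cartilage and 2 of 4 neural markers with a probe passed. *Xist*, transcribed from the inactive X chromosome of females, had a log2 level of 9.64 in the control of litter 1 and of 9.39 and 9.64 in the mutants of litters 2 and 3, against 4.54 to 4.61 on the other arrays. The genotype with the high *Xist* level was thus the control in litter 1 and the mutant in litters 2 and 3. *Eif2s3y*, on the Y chromosome, was detected on all 6 arrays. Its log2 level was 9.20 in the control of litter 1, 8.89 and 8.02 in the mutants of litters 2 and 3, and 9.94 to 10.06 on the other arrays. The labels do not give the sex of the pooled embryos.

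Most of the *Hox* repertoire was detected in the E15.5 kidney. A probe was tested when it was detected on at least 3 of the 6 arrays, and 33 *Hox* probes passed, 1 of them for *Hoxd3os1*. The others came from 25 of the 38 protein-coding genes, against 10474 of 19057 genes (55%) over the whole array. A probe detected on all 6 arrays was found for 23 of the 25. Clusters differed in how many genes were seen. In *Hoxa*, on chromosome 6, 9 of 10 genes were tested, and in *Hoxb*, on chromosome 11, 7 of 10. In *Hoxd*, on chromosome 2, 6 of 9 genes were tested, whereas in *Hoxc*, on chromosome 15, 3 of 9 were, namely *Hoxc6*, *Hoxc9* and *Hoxc10*. An undetected probe says only that its signal did not exceed the negative controls, and no probe's signal was set against that of another.

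**Figure D1:**
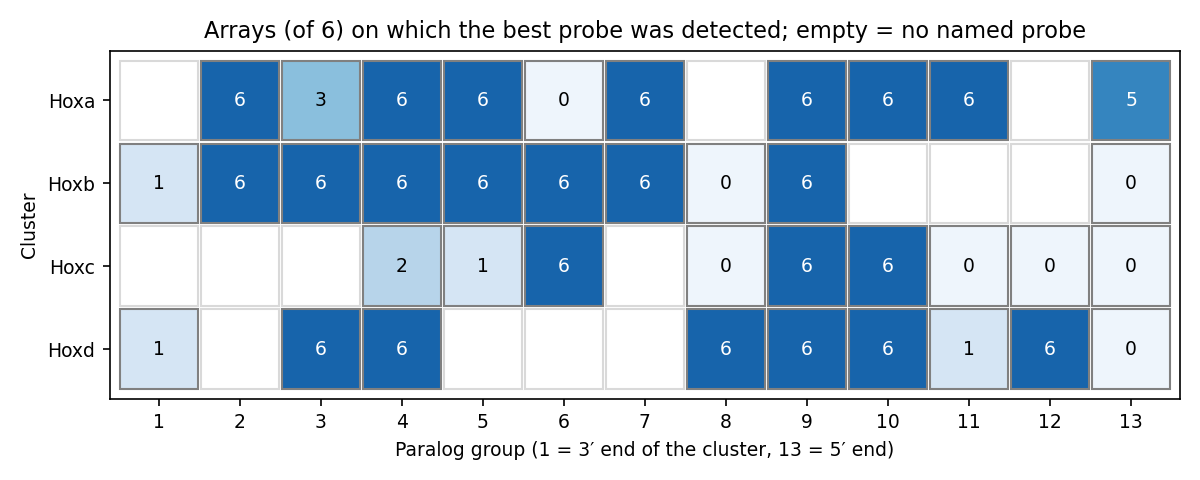
Number of the 6 arrays on which the best probe of each protein-coding *Hox* gene was detected, with clusters in rows and paralog groups 1 to 13 in columns. Empty cells have no named probe, and 23 of the 38 genes were detected on all 6 arrays.

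Undetected genes lay mainly at the highest paralog numbers and in *Hoxc*. For 8 genes no probe was detected on any array: *Hoxa6*, *Hoxb8*, *Hoxb13*, *Hoxc8*, *Hoxc11*, *Hoxc12*, *Hoxc13* and *Hoxd13*. A further 5 genes, *Hoxb1*, *Hoxc4*, *Hoxc5*, *Hoxd1* and *Hoxd11*, were detected on 1 or 2 arrays and were not tested. All 26 untested *Hox* probes lay between signals of 88.6 and 165. Tested probes also reached into this range. Among them were the main probes of *Hoxa3* (112 to 128), *Hoxa13* (122 to 154), *Hoxa10* (133 to 167) and *Hoxa4* (133 to 184). Differences given for these genes rest on dim signals. *Hoxa13*, which patterns the limb and the genital tubercle, was the only gene of the 13th paralog group to be tested, through a probe detected on 5 of 6 arrays. *Hoxa3*, needed for the thymus and parathyroid, passed on 3 arrays.

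No *Hox* probe differed between mutant and control kidneys by the criterion of the study's methods, a limma B-statistic above 0 with litter in the model. That criterion called 0 of the 18639 tested probes (0%), and the same was true at a Benjamini-Hochberg adjusted p under 0.05 (0%). At an unadjusted p under 0.05, limma gave 1028 probes (5.52%). The smallest adjusted p of any *Hox* gene was 0.86 and the highest B-statistic was -3.01. With 1 probe per gene, the one of highest mean, log2 differences of the 25 tested *Hox* genes ran from -0.32 to 0.85 with SEs of 0.19 to 0.30. Their median was 0.04, beside -0.04 over all 10474 tested genes. Estimates were above 0 for 14 genes and below 0 for 11, but when arrays were scaled to a common median in place of quantile normalization the split was 6 and 19, with a *Hox* median of -0.26 beside -0.27 over all genes. The 95% confidence interval of 22 of the 25 genes lay within 1 log2 unit on either side of 0.

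**Figure D2:**
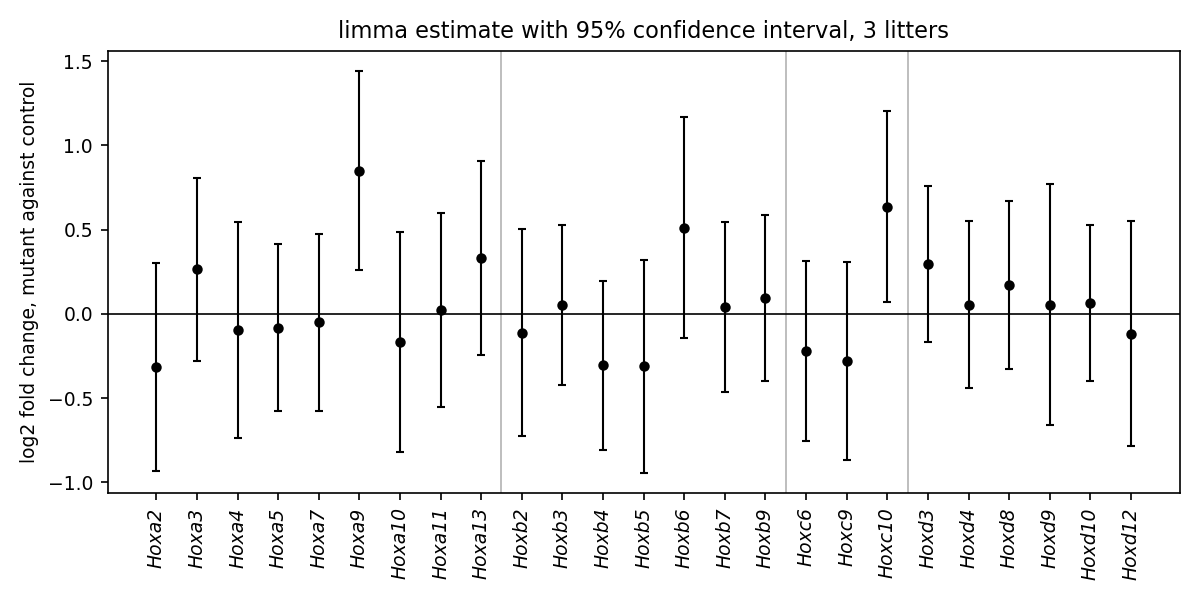
Log2 fold change of mutant against control for each of the 25 tested *Hox* genes, ordered by cluster and paralog group, with points for the limma estimate and bars for the 95% confidence interval over 3 litters. The intervals of *Hoxa9* and *Hoxc10* lie above 0, the other 23 include 0, and none passed adjustment over all probes.

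*Hoxa9* had the largest difference of the family. This gene acts in posterior patterning and in blood progenitors. Its bead signals were 231, 232 and 226 in the controls of litters 1, 2 and 3, and 344, 233 and 330 in the mutants. After normalization the log2 levels were 7.01, 7.02 and 6.88 in controls and 7.80, 7.39 and 8.27 in mutants. All mutant arrays were above all control arrays after normalization, whereas in the deposited signals the litter 2 pair was level. Group means were 6.97 ± 0.08 and 7.82 ± 0.44 (SD, n = 3). Its log2 fold change was 0.85 (SE 0.25, 95% confidence interval 0.26 to 1.44), a 1.80-fold higher level in the mutant, with a limma adjusted p of 0.86.

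Of the other *Hoxa9* probes, the one detected on all 6 arrays had a log2 difference of 0.74 (SE 0.26, limma adjusted p = 0.86), again with no overlap between the groups. The third probe was detected on 5 arrays and its difference was 0.28 (SE 0.27), higher in mutants of litters 1 and 2 and lower in litter 3. The size depended on the values used. It was 0.39 in the series-matrix values deposited by the authors, 0.60 when arrays were scaled to a common median, and 0.58 to 1.09 when 1 litter was left out. The promoter of *Hoxa9* is shown because this gene had the largest estimate and starts beside *Mir196b*. It is the RefSeq window of 300 bases on GRCm38.p6 (chr6:52227321-52227620, - strand), with its 4 CG dinucleotides in capitals.
Hoxa9 promoter: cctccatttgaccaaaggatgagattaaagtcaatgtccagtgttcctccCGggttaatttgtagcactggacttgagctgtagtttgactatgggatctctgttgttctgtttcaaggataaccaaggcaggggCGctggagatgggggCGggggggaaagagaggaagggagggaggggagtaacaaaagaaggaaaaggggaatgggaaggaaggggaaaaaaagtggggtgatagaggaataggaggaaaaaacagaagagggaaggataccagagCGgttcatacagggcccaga
Promoter windows were found for 22 *Hox* genes. Their median count of CG dinucleotides was 13.5 (range 4 to 45), against 7 over all 27025 windows, so *Hoxa9* was at the low end of the family. The median GC content was 56.8% for *Hox* and 52.7% for all windows. CCAAT, searched on both strands, was present in 63.6% of *Hox* windows and 37.9% of all. TATAAA was present in 13.6% and 14.2%, and TGATNNAT, a PBX and HOX type motif, in 13.6% and 9.04%. These matches are a description of the letters in the window.

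*Hoxc10*, a member of the paralog group required in the mouse renal stroma, had the next largest difference. Control signals were 508, 401 and 498 and mutant signals 556, 532 and 589. On the log2 scale the levels were 8.59, 8.17 and 8.45 in controls and 8.70, 9.04 and 9.37 in mutants. Every mutant array was above every control array, narrowly so in litter 1. Means were 8.40 ± 0.21 and 9.04 ± 0.33 (SD, n = 3), and the log2 fold change was 0.64 (SE 0.24, 95% confidence interval 0.07 to 1.20, 1.55-fold, limma adjusted p = 0.86). Its other probe overlapped between groups, with a log2 difference of 0.54 (SE 0.33), lower in the mutant in litter 1 and higher in litters 2 and 3.

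The remaining paralogs of that group had 95% confidence intervals that included 0. *Hoxd10* signals were 1870, 1658 and 1974 in controls and 1910, 1492 and 1243 in mutants, or log2 levels of 10.68, 10.48 and 10.64 against 10.77, 10.66 and 10.58. The groups overlapped closely, and the log2 difference was 0.07 (SE 0.19, 95% confidence interval -0.40 to 0.53). *Hoxa10* was lower in the mutant in litters 1 and 2 and higher in litter 3, with an interval of -0.82 to 0.49. The differences between these paralogs were not tested.

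Read against all genes, *Hoxa9* and *Hoxc10* were the 2 of 25 *Hox* genes with an unadjusted p under 0.05 and a higher level in the mutant, where 2.13% of all tested genes met that rule (5.36% in either direction). No *Hox* gene was lower at that threshold in this fit, against 3.23% of all genes. The count of 2, taken in either direction, depended on the litters. It became 6 without litter 1, of which 4 were higher in the mutant (*Hoxa3*, *Hoxa9*, *Hoxb6* and *Hoxc10*) and 2 lower (*Hoxb5* and *Hoxc9*). It was 1 without litter 2 (*Hoxa9*, higher) and 0 without litter 3. The share of all tested genes past the threshold moved as well, to 21.3%, 3.05% and 2.91% in these fits. When all tested probes of a gene were averaged, *Hoxa9* was the 1 gene left. With scaling to a common median the genes past this threshold were *Hoxa9*, higher in the mutant, and *Hoxb4* and *Hoxb5*, both lower. *Hoxc10* was not among them, and 11.8% of all genes passed in either direction.

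**Figure D3:**
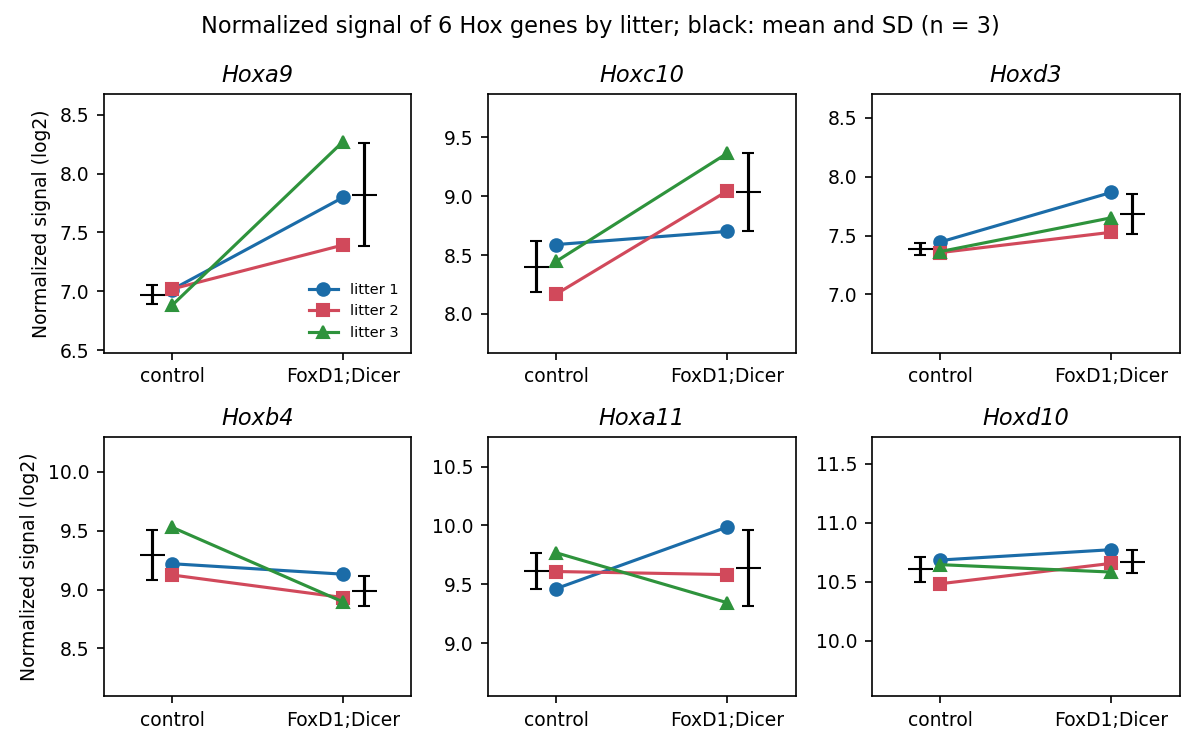
Normalized log2 signal of *Hoxa9*, *Hoxc10*, *Hoxd3*, *Hoxb4*, *Hoxa11* and *Hoxd10* in control and mutant kidneys, with a line joining the arrays of each litter and black marks for the mean and SD of 3 arrays. Mutant arrays lie above all controls for *Hoxa9*, *Hoxc10* and *Hoxd3* and overlap them for the other genes.

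Of the 25 genes, 3 were higher in the mutant in all litters, namely *Hoxa9*, *Hoxc10* and *Hoxd3*, which is 12% where 9.86% of all tested genes were. The same 3 genes had mutant arrays that all exceeded the controls, as did 5.1% of all genes. *Hoxb4* alone was lower in all litters (4%), against 15.4% of all genes. No *Hox* gene had all mutant arrays below the controls, against 8.23% of all genes. The remaining 21 genes changed sign between litters.

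*Hoxd3*, which acts in patterning the cervical vertebrae, had signals of 280, 268 and 278 in controls and 356, 246 and 249 in mutants. Its log2 levels were 7.45, 7.36 and 7.36 against 7.87, 7.53 and 7.65. In the deposited signals the mutant was below the control in litters 2 and 3, and after normalization it was above it. The log2 fold change was 0.29 (SE 0.20, 95% confidence interval -0.17 to 0.76, limma adjusted p = 0.86), and 0.059 under scaling to a common median. *Hoxb4*, known for its action in haematopoietic stem cells, had signals of 736, 692 and 947 in controls and 714, 499 and 455 in mutants. Log2 levels were 9.22, 9.12 and 9.53 against 9.13, 8.93 and 8.89, with litter 1 of the mutant inside the control range. The log2 fold change was -0.31 (SE 0.21, 95% confidence interval -0.81 to 0.20, limma adjusted p = 0.86). It was -0.60 under scaling to a common median and -0.14 without litter 3.

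The Hox11 paralogs, which specify the metanephric mesenchyme, were represented by *Hoxa11* alone. Its signals were 847, 932 and 1111 in controls and 1180, 743 and 580 in mutants, and its log2 levels 9.46, 9.61 and 9.77 against 9.99, 9.58 and 9.34. The mutant arrays spanned a wider range than the controls, with the highest and the lowest value both among them. The log2 fold change was 0.02 (SE 0.24, 95% confidence interval -0.55 to 0.60), and it took the opposite sign under the scaling to a common median (-0.28). Both *Hoxc11* probes were undetected on every array. *Hoxd11* was detected on 1 array, the mutant of litter 1, at a signal of 165, against 95.1 to 115 on the other arrays for the same probe.

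*Hoxb7* is expressed in the nephric duct and ureteric bud, and its promoter drives transgenes there. It gave control signals of 2059, 2135 and 2921 and mutant signals of 2356, 1949 and 1570. After normalization these were 10.83, 10.87 and 11.24 against 11.09, 11.03 and 10.93, so that the mutant arrays fell inside the control range. The log2 fold change was 0.04 (SE 0.21, 95% confidence interval -0.47 to 0.54), and -0.28 under scaling to a common median. A further *Hoxb7* probe gave -0.05 (SE 0.19).

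For the miR-196 targets, 2 of 4 genes could be tested. *Hoxb8* and *Hoxc8* were undetected on all 6 arrays, mutants included. *Hoxa7*, a trunk patterning gene, had log2 levels of 8.64, 8.79 and 8.79 in controls and 8.97, 8.69 and 8.40 in mutants, from signals of 521, 568 and 609 against 648, 436 and 352. The mutant values lay on both sides of the controls, and the log2 fold change was -0.05 (SE 0.22, 95% confidence interval -0.58 to 0.48). *Hoxd8* had signals of 1748, 1470 and 1693 against 1621, 1285 and 1512, and log2 levels of 10.59, 10.30 and 10.42 against 10.51, 10.44 and 10.88. Its mutant arrays overlapped the controls, with litter 3 above them, and the difference was 0.17 (SE 0.21, 95% confidence interval -0.33 to 0.67), or -0.15 under scaling to a common median.

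Of the miR-10 targets, *Hoxb3* and *Hoxd10* were tested. *Hoxb3*, which patterns the hindbrain and whose gene model holds *Mir10a*, had signals of 703, 657 and 719 in controls and 695, 618 and 488 in mutants, and log2 levels of 9.15, 9.03 and 9.07 against 9.08, 9.29 and 9.03. Only the mutant of litter 2 was outside the control range. The log2 fold change was 0.05 (SE 0.20, 95% confidence interval -0.42 to 0.53), and *Hoxd10*, described above, gave 0.07. Under scaling to a common median these became -0.24 and -0.27. The upper bounds for *Hoxa7*, *Hoxd8*, *Hoxb3* and *Hoxd10* were all under 1 log2 unit, for RNA of the whole kidney. A change limited to the stromal cells was not measured here.

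Litter 1 and the other litters often pointed in opposite directions. In 13 of the 25 *Hox* genes (52%) the difference in litter 1 had one sign and those in litters 2 and 3 had the other, where 46.0% of all tested genes did so. *Hoxa5*, *Hoxa7*, *Hoxa11*, *Hoxb2*, *Hoxb5*, *Hoxc6* and *Hoxc9* were higher in the mutant in litter 1 and lower in litters 2 and 3. For *Hoxb5*, for example, a trunk patterning gene, the differences were 0.29, -0.32 and -0.90, giving -0.31 (SE 0.27) overall. *Hoxa3*, *Hoxa4*, *Hoxb6*, *Hoxb9*, *Hoxd8* and *Hoxd9* did the reverse. *Hoxb6* is one of these, with differences of -0.22, 0.84 and 0.92 and an overall value of 0.51 (SE 0.28). The main *Hoxd9* probe gave -0.69, 0.07 and 0.79.

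**Figure D4:**
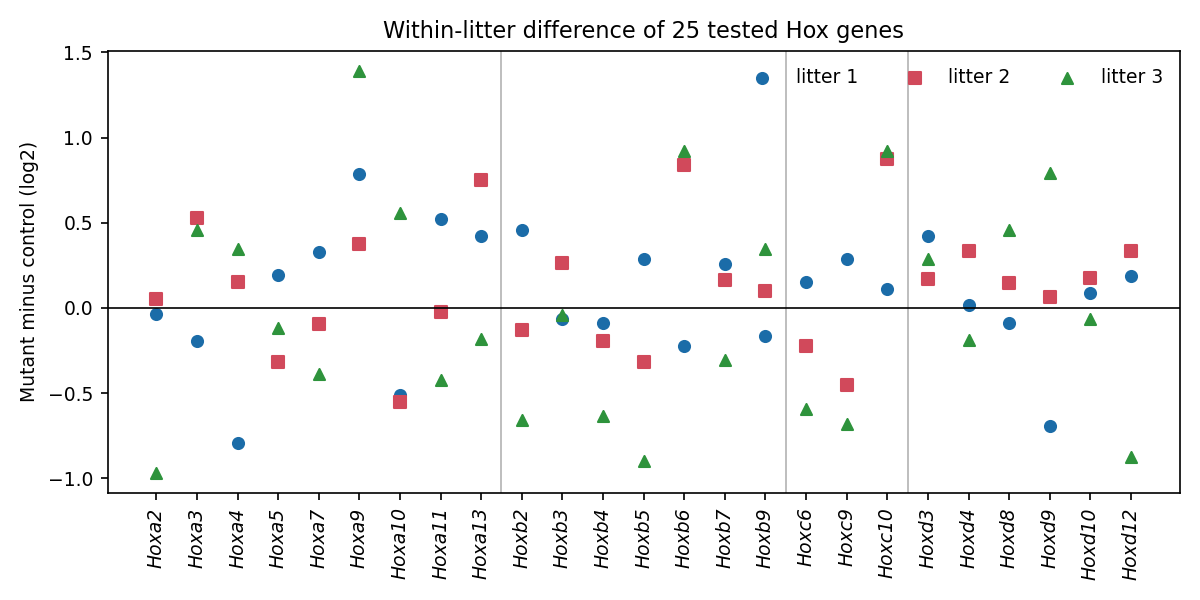
Difference in log2 level between the mutant and the control array of each litter for the 25 tested *Hox* genes, ordered by cluster and paralog group. Circles, squares and triangles are litters 1, 2 and 3, and in 21 genes the litters fall on both sides of 0.

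Several measures moved with this split. The log2 difference in the summed level of the 6 nephron progenitor markers was -0.28, 0.40 and 0.48 in litters 1, 2 and 3, and the median over its genes was -0.17, 0.28 and 0.40. Of its members, *Six2* and *Crym* followed the sum, whereas *Meox1* went the other way (0.89, -0.69 and -0.77). *Cited1* and *Eya1* were higher in the mutant in all 3 litters, and *Tmem100* was lower in all 3. The 4 proximal tubule markers gave 0.13, -0.98 and -0.64 as a sum and 0.03, -0.80 and -0.84 as a median, and among them *Cubn* was lower in all 3 litters. For the 7 tested ureteric bud markers the sum gave -0.42, 0.42 and 0.41, but the median was -0.26, 0.45 and -0.24, as *Krt8*, *Krt18* and *Gata3* followed the sum and *Ret*, *Wnt9b*, *Wnt11* and *Wnt7b* did not. *Xist* divided the litters in the same way, as given above. Array brightness, the 95th percentile ratio given above, was lower in the mutant in every litter. Control and mutant ratios were 9.84 and 9.46 in litter 1, 9.45 and 7.90 in litter 2, and 10.5 and 7.91 in litter 3. The part of *Xist* and of brightness in the *Hox* values was not tested separately. With *Xist* as a covariate the log2 fold change was 0.83 for *Hoxa9* and 0.51 for *Hoxc10*. The summed level of the 7 stromal markers was lower in the mutant in every litter (-0.43, -0.20 and -0.27), but their median was -0.51, 0.04 and 0.16. *Col3a1* was the brightest of these markers, at log2 levels of 11.7 to 12.3 beside sums of 12.6 to 13.1. *Col3a1* and *Foxd1* were lower in all 3 litters, whereas *Pdgfra* and *Pdgfrb* were higher in all 3. *Col1a1* (-1.18, 1.21 and 1.07) and *Tcf21* (-0.67, 0.04 and 0.23) were lower in litter 1 and higher in litters 2 and 3. *Tnc* gave -0.85, -0.44 and 0.16.

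Position in the cluster was set beside the size of the difference. Medians were -0.05 for the 9 tested genes of *Hoxa*, 0.04 for the 7 of *Hoxb*, -0.22 for the 3 of *Hoxc* and 0.06 for the 6 of *Hoxd*. By paralog number they were -0.02 for groups 1 to 4 (8 genes), -0.05 for groups 5 to 8 (7 genes) and 0.06 for groups 9 to 13 (10 genes). Whether clusters or paralog groups differed was not tested. Among the lower-numbered genes *Hoxa2*, which patterns the hyoid arch, had the lowest estimate of the family, -0.32 (SE 0.26), and its dimmer probe gave -0.10 (SE 0.31). Antisense *Hoxd3os1* had a difference of -0.31 (SE 0.25) at its tested probe.

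Genes that act with *Hox* proteins or upstream of them were described from lists. Of 9 TALE homeodomain cofactors, which bind DNA with Hox proteins, 7 were tested, 3 with estimates above 0 and 4 below, and their median was -0.01. In this list *Pbx3* alone had an unadjusted p under 0.05, where 5.36% of all tested genes did. Its log2 levels were 6.23, 5.21 and 5.50 in controls and 6.22, 6.25 and 6.67 in mutants. They were level in litter 1 and higher in the mutant in litters 2 and 3 (log2 fold change 0.74, SE 0.28, limma adjusted p = 0.86). The *Pbx3* signals were dim, at 136 to 181, and the probe was detected on 5 arrays. In the deposited log2 table its differences were 0.004, 0.20 and 0.26 in litters 1, 2 and 3.

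In the Hox11, Eya1 and Six2 network, 7 of 10 genes were tested, with a median of 0.14. *Eya1*, the transcriptional partner of Hox11 proteins, had levels of 7.65, 7.48 and 7.23 in controls and 7.77, 8.01 and 8.39 in mutants. All mutant arrays were above all controls, as for 5.1% of all tested genes. The unadjusted p was under 0.05, as for 5.36% of all tested genes. Its log2 fold change was 0.60 (SE 0.25, limma adjusted p = 0.86). *Six2*, which maintains nephron progenitors, differed by -0.61, 1.12 and 1.49 in litters 1, 2 and 3, giving 0.67 (SE 0.40). *Gdnf*, the ureteric bud growth factor, gave -0.38 (SE 0.20) and was lower in all 3 litters.

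Polycomb and Trithorax proteins keep *Hox* clusters silent or active. Of 23 listed, 20 were tested, 11 with estimates above 0 and 9 below, at a median of 0.03. None had an unadjusted p under 0.05, beside 5.36% of all tested genes. The extremes were *Ezh2*, the H3K27 methyltransferase, at 0.49 (SE 0.22) and *Ring1* at -0.63 (SE 0.28). Among 9 axial regulators of *Hox* expression, *Cdx* genes included, 2 were tested. *Rarg*, a retinoic acid receptor, had levels of 6.17, 6.48 and 6.18 in controls and 5.63, 5.54 and 5.82 in mutants. All mutants were below all controls, as for 8.23% of all tested genes. The unadjusted p was under 0.05, as for 5.36% of all tested genes (log2 fold change -0.61, SE 0.21, limma adjusted p = 0.86). *Rarb* gave -0.08.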

How the data were processed

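RNA of 6 E15.5 kidney pools was hybridised to Illumina MouseWG-6 v2.0 arrays. The authors deposited a bead signal intensity and a detection p-value per probe for each array, not normalized, and a table of log2 values processed with lumi and limma. No source used here gives the steps behind that table or the scanner software. Its array medians were 7.23 to 7.24. Of 45281 entries, 2 without an identifier and 2 with a repeated identifier were left out. Platform annotation gave 1 gene for 34881 probes, several for 18 and none for 10378.

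Signals were processed with neqc in limma 3.58.1 (R 4.3.3): normexp background correction from the detection p-values, an offset of 16, quantile normalization over all probes, then log2. Probes detected at p under 0.05 on at least 3 arrays were fitted with lmFit and eBayes, with genotype and litter as terms and a prior share of 0.01 for the B-statistic. The labels give the litter that the arrays of a number share, so litter was a block. Deviations from the group means correlated by -0.29, -0.02 and -0.12 within litters 1, 2 and 3. P-values were adjusted by Benjamini-Hochberg over all 18639 tested probes. The probe of highest mean stood for a gene. With 3 pools per genotype, precision is limited by their number. P-values rest on how the mutant minus control difference varied between litters, with a variance moderated over all tested probes.

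Values in each array are given for Hox11 paralogs, *Hoxb7*, miR-196 and miR-10 targets, genes with an unadjusted p under 0.05, and genes of one direction in all litters. The promoter gene, *Hoxb5*, *Hoxb6*, *Hoxd9*, *Hoxa2*, *Hoxa10*, *Six2*, *Gdnf*, *Ezh2*, *Ring1* and *Rarb* were picked after their values were seen. Members and lists were chosen with earlier results of these data known. The scripts were tested on simulated data. Alternatives were no block or a random block for litter, scaling to a common median, omitting the background correction, the deposited log2 table, other filters, an intensity trend, array weights, *Xist* as a covariate, averaged probes and leaving out each litter.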

Additional observations from a re-analysis of the deposited data

How the results depend on the processing

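*Hox* probes with a B-statistic above 0 numbered 0 under every alternative run. Over all tested probes that count, 0 in the report, was 34 with no replicate block for litter, 10 with litter as a random block, 5 without background correction, 117 with scaling to a common median, 18 with an intensity trend, 249 with array weights, 10 with *Xist* as a covariate, and 0 to 35 when 1 litter was left out. The cause was not tested. The number of *Hox* genes with an unadjusted limma p under 0.05, 2 in the report, was 6 of 25 with array weights (30.9% of all tested genes passed in that fit), 1 with averaged probes and 0 to 6 without 1 litter. The median *Hox* log2 fold change was -0.26 under scaling to a common median and 0.013 to 0.12 without 1 litter. Of 140 values of named genes under alternatives, 127 kept their sign and 13 did not. Changing the litter block, the filter or the intensity trend left the estimates of these genes as they were. Those fits could not change a sign, so the count of kept signs does not measure stability. Under scaling to a common median, the estimates became -0.28 for *Hoxa11*, -0.28 for *Hoxb7*, -0.15 for *Hoxd8*, -0.24 for *Hoxb3* and -0.27 for *Hoxd10*. *Hoxa11* was -0.053 with array weights, *Hoxa7* 0.039 with *Xist* as a covariate and *Hoxb7* -0.0062 with averaged probes. Without 1 litter the ranges were -0.23 to 0.25 for *Hoxa11*, -0.070 to 0.21 for *Hoxb7*, -0.052 to 0.11 for *Hoxb3* and -0.24 to 0.12 for *Hoxa7*. *Hoxa9*, *Hoxc10*, *Hoxd3* and *Hoxb4* kept their sign throughout, but they were picked from these data and had one direction in all litters. Leaving out 1 litter could therefore not reverse them. *Hoxa9* ran from 0.39 to 1.09 and *Hoxc10* from 0.34 to 0.90, with adjusted p-values of 0.10 to 1.00 and 0.053 to 1.00. *Hoxd3* ran from 0.059 to 0.35 and *Hoxb4* from -0.60 to -0.14. The 26 untested *Hox* probes were detected on 2 arrays at most, and what their genes did in a minority of cells was not measured.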
